A study of Mus musculus with 11 samples.

Results

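The comparison described here is the effect of losing DNMT3C on the testis transcriptome, taken over both states of Nrf1 at once. All 11 libraries of the series entered it. The 6 Dnmt3C-deficient libraries were set against the 5 Dnmt3C-intact ones in a model with a term for Dnmt3C and a term for Nrf1, and the Dnmt3C term was read for every gene and every subfamily of transposable elements (TEs). WT (2 libraries) and Nrf1_KO (3 libraries) were intact, and D3C_KO (3 libraries) and DKO (3 libraries) were deficient. D3C_KO carried the constitutive Dnmt3CKO/KO mutation. Nrf1_KO, labelled Nrf1KO/KO, carried 1 null Nrf1 allele and 1 floxed allele recombined by Cre under the germ-cell promoter of Ddx4 (Vasa), so that germ cells lost both copies and somatic cells kept a single working one. DKO carried the mutations of both genes. Each library was poly-A RNA from whole testis at postnatal day 5, with littermate controls where possible and all strains bred onto C57Bl6/J. The labels' titles say germ cells, but no cells were sorted, and the markers of germ cells and of 6 other cell types were all detected, Sertoli cell markers summing to between 4909 and 9080 CPM in every library, where CPM is the reads of a feature scaled to a common library size. In such bulk RNA, fewer cells of a type and less RNA per cell cannot be told apart.

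DNMT3C is a rodent-specific DNA methyltransferase of fetal male germ cells. It acts late in the wave of de novo methylation, downstream of the piRNA pathway, and methylates the promoters of evolutionarily young retrotransposons, among them young LINE1 elements and endogenous retroviruses of the ERVK family. An ERVK provirus has an internal part (marked -int in the subfamily names) that encodes the viral proteins, and a long terminal repeat (LTR) on each side that carries its promoter. IAP elements (IAPEz-int, IAPA_MM-int and the IAPLTR repeats) and MMERVK10C elements (MMERVK10C-int with RLTR10 repeats) are both ERVKs. NRF1 is a transcription factor that prefers unmethylated CpG-containing sites, and the study removed it to ask what it contributes once methylation is lost.

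The deposited counts gave between 26063590 and 39365841 reads per library, with a median of 33862160. The targeted genes did not check the genotypes. Dnmt3c (ENSMUSG00000082079.2, GRCm38 chromosome 2, 153696652 to 153729907) had 4.16 and 4.87 CPM in WT, 3.86, 4.87 and 4.03 in Nrf1_KO, 3.02, 3.84 and 4.51 in D3C_KO, and 4.28, 4.94 and 3.55 in DKO. The groups overlapped, with a Dnmt3C term of -0.12 on the log2 scale and a standard error (SE) of 0.17. Nrf1 had 57.0 and 58.0 CPM in WT and 45.0, 55.6 and 50.3 in D3C_KO, where it is intact, and 56.1, 52.2 and 57.9 in Nrf1_KO and 56.8, 60.8 and 60.8 in DKO. It was thus not lower in the libraries labelled as Nrf1-deleted, and every DKO library lay above every D3C_KO one. Reads of a whole gene do not show whether a mutant transcript codes for protein, so the groups rest on the labels.

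Loss of DNMT3C was accompanied by more MMERVK10C and RLTR10 RNA and by more RNA of a few genes. Of 22594 features tested, 5 passed an adjusted p of 0.01, which is 0.0221% of them, and all 5 were higher without DNMT3C. They were the subfamilies MMERVK10C-int and RLTR10C (2 of 904, or 0.221%) and the genes Gabrr1, Gm15389 and BC051019 (3 of 21690, or 0.0138%). The 3 genes passed the filter on low counts only through the deficient libraries, so at their level only higher genes could enter the test. For each of the 5, every deficient library lay above every intact one, which was the case for 32 genes (0.148%) and 6 subfamilies (0.664%) in all, and for 10 genes (0.0461%) and 0 subfamilies in the opposite direction. Before adjustment, at p under 0.05, 30 subfamilies were higher (3.32%) and 3 lower (0.332%), and 437 genes were higher (2.01%) and 287 lower (1.32%). Of the 437, 142 would not have passed the filter on low counts on the intact libraries alone. Among genes in the annotation that would, 295 were higher and 284 lower. This second filter was added after seeing the data, and it favours genes that are lower without DNMT3C. The median Dnmt3C term was 0.01 over all subfamilies and -0.01 over all genes, of which 48.2% had a positive term. With a score of germ-cell markers added to the model, none of the 5 calls was kept (edgeR adjusted p between 0.024 and 0.0435), while MMERVK10C-int stood at 1.89, RLTR10C at 1.59, Gabrr1 at 3.03, Gm15389 at 3.87 and BC051019 at 2.79.

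MMERVK10C-int rose 4.12-fold, the largest subfamily effect in the series' Dnmt3C term. It had 84.0 and 81.8 CPM in WT, 33.8, 53.6 and 51.6 in Nrf1_KO, 402, 189 and 240 in D3C_KO and 303, 212 and 165 in DKO. The lowest deficient library was thus above the highest intact one, and D3C_KO replicate 1 and DKO replicate 1 were the highest of their genotypes. The means were 252 ± 87.6 (SD, n = 6) in deficient and 61.0 ± 21.5 (SD, n = 5) in intact libraries, a log2 fold change of 2.04 (± 0.22 SE, adjusted p = 0.00322 in the quasi-likelihood test of edgeR). When single libraries were dropped it stayed between 1.88 and 2.15, and the call was lost without WT replicate 2 (edgeR adjusted p = 0.0118) or Nrf1_KO replicate 2 (adjusted p = 0.0243).

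RLTR10C, an LTR of the MMERVK10C group, rose 3.13-fold. Its levels were 11.5 and 8.78 CPM in WT, 6.25, 11.2 and 11.5 in Nrf1_KO, 47.5, 26.4 and 27.9 in D3C_KO and 36.6, 27.7 and 21.3 in DKO. Again no deficient library reached down to the intact ones. The log2 fold change was 1.65 (± 0.21 SE, edgeR adjusted p = 0.00662). Across fits that each drop a library it ranged from 1.51 to 1.74, but only the fits without D3C_KO replicate 2 or DKO replicate 3 kept it under the threshold, and the adjusted p reached 0.0517 in the others. RLTR10B2, a second LTR of the group, had the same shape just short of the threshold, at 1.62 and 2.16 CPM in WT, 1.34, 2.12 and 1.36 in Nrf1_KO, 8.13, 4.12 and 5.18 in D3C_KO and 5.96, 6.06 and 4.00 in DKO (log2 fold change 1.67 ± 0.24 SE, edgeR adjusted p = 0.013). Of the 11 subfamilies of the MMERVK10C and RLTR10 group that were tested, 2 were called, 7 were higher at an unadjusted p under 0.05, 3 had libraries that did not overlap, and 10 had a positive Dnmt3C term, with a median of 0.56. RLTR10B, RLTR10-int, RLTR10D2 and RLTR10A completed the 7, at 0.97, 0.56, 0.72 and 0.47.

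**Figure D1:**
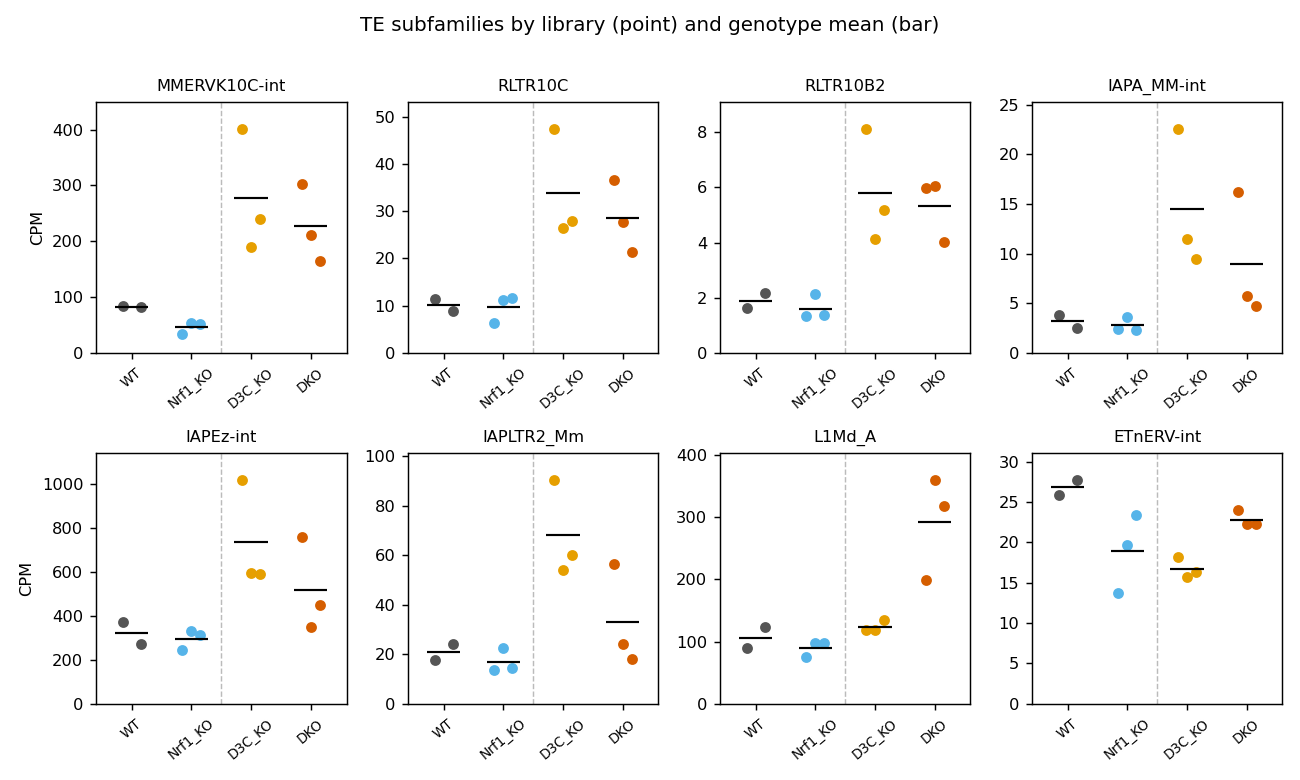
CPM of 8 TE subfamilies in each of the 11 libraries (points), by genotype, with the genotype mean (bar) and a dashed line between Dnmt3C-intact and Dnmt3C-deficient genotypes. MMERVK10C-int, RLTR10C, RLTR10B2 and IAPA_MM-int do not overlap across the dashed line, IAPEz-int and IAPLTR2_Mm overlap through DKO libraries, L1Md_A is high only in DKO, and ETnERV-int shows no separation.

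IAP elements mostly had positive Dnmt3C terms, and none passed the threshold. IAPA_MM-int had 3.81 and 2.5 CPM in WT, 2.40, 3.65 and 2.28 in Nrf1_KO, 22.6, 11.4 and 9.40 in D3C_KO and 16.2, 5.75 and 4.74 in DKO, so that the libraries did not overlap while the deficient ones spread widely (log2 fold change 1.91 ± 0.35 SE, edgeR adjusted p = 0.108). IAPEz-int, the internal part of the commonest IAP type, had 373 and 273 CPM in WT, 244, 333 and 311 in Nrf1_KO, 1021, 594 and 590 in D3C_KO and 757, 352 and 448 in DKO. DKO replicate 2 lay below WT replicate 1, and the log2 fold change was 0.98 (± 0.21 SE, adjusted p = 0.207). IAP1-MM_I-int (1.44), IAPLTR2a (1.40), IAPLTR2_Mm (1.30) and IAPLTR1_Mm (1.16) had adjusted p between 0.084 and 0.217, and the libraries overlapped for each. Of the 8 IAP internal subfamilies, 0 were called and 4 were higher at an unadjusted p under 0.05, with a median of 0.83. Of 16 IAP LTR subfamilies, 0 were called and 5 were higher at that p, with a median of 0.24. Other tests of the same model differed. The limma-voom test and the older quasi-likelihood method of edgeR called MMERVK10C-int alone, and the DESeq2 Wald test called 9 subfamilies. These were MMERVK10C-int, RLTR10C, RLTR10B2, IAPA_MM-int, IAP1-MM_I-int, IAP1-MM_LTR, IAPEz-int, IAPLTR1_Mm and IAPLTR2a, all higher.

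The ERVK family as a whole held 21 of the 30 subfamilies that were higher at an unadjusted p under 0.05, among 265 tested (7.92%, against 3.32% over all subfamilies). Of these, 16 belong to the lists just described. The other 230 ERVK subfamilies held 5 (2.17%), IAP1-MM_LTR, which the IAP list does not hold, and RLTR45-int, RLTR25B, RLTR44-int and RLTR27. The ERV1 family, retroviruses of another class, held 5 of 93 (5.38%). The Gypsy family held 2 of 13 (15.4%), MamGypLTR3 at 0.90 and LTR104_Mam at 1.08, with MamGypLTR1d lower at that p at -1.20, and the DNA transposons of the hAT-Tip100 family held 1 of 22 (4.55%), FordPrefect at 0.76. All 5 of the ERV1 family belonged to MMERGLN and RLTR1B elements or their relatives: MMERGLN-int at 0.53, MMERGLN_LTR at 0.68, LTRIS4B at 0.99, RLTR1B at 0.44 and RLTR1B-int at 0.29, with RLTR1B and LTRIS4B not overlapping between the groups. Of ETn and MusD elements, also ERVKs, 0 of 5 reached p under 0.05 in the Dnmt3C term (median -0.06, ETnERV-int at -0.16 with a SE of 0.17), and of MERVL elements 0 of 8 did (median 0.02). These terms near 0 averaged estimates of opposite sign in the Nrf1 backgrounds. The difference between the backgrounds was called for none of them (edgeR adjusted p = 0.815 for each of those named next). ETnERV-int stood at -0.68 with Nrf1 intact and 0.27 with Nrf1 deleted, MMETn-int at -0.70 and 0.47, and MERVL-int at -0.57 and 0.33, the same split as in the median over all subfamilies given below. Among 120 LINE1 subfamilies, 1 was higher at that p, and among 16 Alu-family SINEs none was.

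That LINE1 subfamily was L1Md_A, a young full-length type. It had 89.6 and 123 CPM in WT, 74.6, 98.2 and 97.6 in Nrf1_KO, 119, 118 and 135 in D3C_KO and 199, 360 and 318 in DKO. D3C_KO sat at the top of the intact range and DKO above it. The Dnmt3C term, 1.03 (± 0.25 SE, edgeR adjusted p = 0.444), therefore averaged unlike values, 0.22 (± 0.23 SE) with Nrf1 intact and 1.7 (± 0.21 SE) with Nrf1 deleted, and their difference of 1.47 had an unadjusted p of 0.000261 and an adjusted p of 0.815. L1Md_T stood at 0.33, with -0.20 and 0.77 in the Nrf1-intact and Nrf1-deleted backgrounds. L1Md_F and L1Md_Gf were at -0.07 and -0.09, the latter from -0.71 with Nrf1 intact and 0.43 with Nrf1 deleted.

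D3C_KO and WT share no library with DKO and Nrf1_KO, so the effect of DNMT3C loss can be given for each Nrf1 background. Most of the features given next were chosen by their p in the term over both backgrounds. The same sign in both follows in part from that choice, and nothing is read from it. MMERVK10C-int was at 1.74 (± 0.32 SE) with Nrf1 intact and 2.29 (± 0.29 SE) with Nrf1 deleted. RLTR10C was at 1.74 and 1.57, RLTR10B2 at 1.62 and 1.71, and IAPA_MM-int at 2.19 and 1.67. Gabrr1 was at 3.6 and 2.83, Gm15389 at 4.44 and 3.75, BC051019 at 2.7 and 3.45, and Spag16, introduced below, at 2.89 and 3.62. In neither background alone did any feature pass the adjusted threshold in edgeR's test (0 of 22594, or 0%, in each), while at an unadjusted p under 0.05 there were 483 higher and 560 lower with Nrf1 intact and 639 higher and 306 lower with Nrf1 deleted. The interaction, which tests whether the backgrounds differ, called 0 features (0%) with edgeR and 0 with DESeq2, with 908 positive and 448 negative at p under 0.05 before adjustment. TE subfamilies made up an uneven part of these counts. At that p, 17 of them were higher and 103 lower with Nrf1 intact, 129 were higher and 1 lower with Nrf1 deleted, and 281 had a positive and 1 a negative interaction. Without WT replicate 1, the interaction was 3.52 for H2-Eb1, 2.56 for H2-Q4 and 3.15 for H2-Q7, which are genes of the major histocompatibility complex. That fit holds WT replicate 2 as its only WT library, so it cannot tell an interaction from a difference of that library. H2-DMa, another gene of the complex, had its highest level of the 11 libraries in WT replicate 2.

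The features with the smallest p in one background were looked up in the other. Of 11 genes higher at p under 0.001 with Nrf1 intact, 10 (90.9%) were also higher with Nrf1 deleted, 8 of them at p under 0.05. Over all genes higher with Nrf1 intact, 40.3% were also higher with Nrf1 deleted. Of the 11, however, 9 would not have passed the filter on low counts on the Dnmt3C-intact libraries alone (a count added after seeing the data), and of the other 2 only 1 was higher in both backgrounds, so the share is a description and nothing is read from it. In the reverse direction 12 of 17 genes had the same sign (70.6%, against 44.6% over all genes), but 5 of them at p under 0.05, and the median of the 17 in the other background was 0.30 where that of the 11 was 2.83. Here 9 of the 17 entered only through deficient libraries, and 5 of the other 8 had the same sign. Of genes picked as lower, 5 of 7 from the Nrf1-intact background (71.4%, against 45.6%) and 4 of 5 from the Nrf1-deleted one (80.0%, against 41.3%) were lower in the other. For TE subfamilies picked as higher it was 4 of 4 from the Nrf1-intact background (against 85.9% over all) and 6 of 7 from the Nrf1-deleted one (against 15.7%), and for those picked as lower 0 of 2 from the Nrf1-intact background (against 9.27%), with none to pick from the other.

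The difference in the TE share of all counts had opposite signs in the backgrounds, and neither passed its own test. It was 3.07 and 2.91% in WT, 1.60, 2.21 and 2.42% in Nrf1_KO, 2.78, 2.2 and 2.56% in D3C_KO and 3.07, 2.72 and 2.42% in DKO. The mean of D3C_KO lay 0.475 percentage points below that of WT and the mean of DKO 0.660 above that of Nrf1_KO (exact permutation p = 0.2 for each, where the smallest possible is 0.1). Over both backgrounds the deficient libraries differed by 0.184 percentage points (p = 0.53, two-sided exact permutation test over 200 arrangements within backgrounds, of which the smallest possible p is 0.005). Without Nrf1_KO replicate 1, the library with the lowest share, that difference was -0.0271. The same permutation takes as its null no Dnmt3C effect in either background, so it does not test whether the effects in the backgrounds are equal. The difference between the backgrounds was 1.14 percentage points (p = 0.02, same exact permutation test, added after seeing the data). It was 1.06 without WT replicate 1, 1.21 without WT replicate 2 and 0.968 without DKO replicate 1, where the exact p was 0.0625, 0.05 and 0.06. The median term over all 904 subfamilies was -0.34 with Nrf1 intact and 0.35 with Nrf1 deleted, and -0.34 and 0.35 when libraries were scaled on genes alone. MMERVK10C-int, RLTR10C, RLTR10B2 and IAPA_MM-int thus stood above the subfamily median in both backgrounds.

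**Figure D2:**
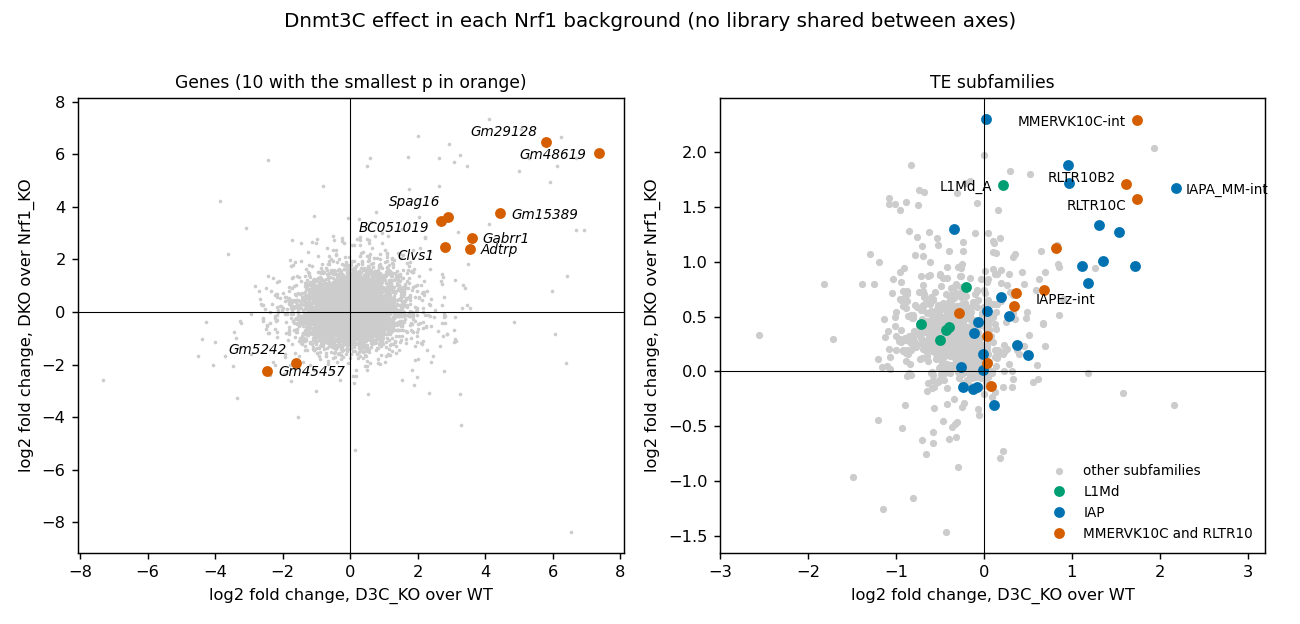
Log2 fold change for Dnmt3C loss with Nrf1 intact (x axis, D3C_KO over WT) against that with Nrf1 deleted (y axis, DKO over Nrf1_KO), for all 21690 genes (left) and all 904 TE subfamilies (right). The 8 named genes at upper right and the MMERVK10C, RLTR10 and several IAP subfamilies are positive on both axes, whereas most grey TE subfamilies lie left of and above 0 and L1Md_A is high on the y axis only.

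At the level of single copies, the authors' tables of TE copies in TPM, an abundance scaled by length and library, listed 578629 copies above 0 in some library. The 6 deficient libraries lay above all 5 intact ones for 574 of them (0.0992%) and below for 228. MMERVK10C-int accounted for 85 of the 574, which is 7.15% of its 1188 copies, and IAPEz-int for 64 of its 3735 (1.71%). MMERGLN-int had 14 of 214 (6.54%) and IAP1-MM_I-int 7 of 192 (3.65%). The MMERVK10C-int copies that separated were long, with a median length of 2840 bases against 834.5 for all its copies, and held 25.4% of the subfamily's TPM in the deficient libraries. Separated copies were also longer in IAPEz-int (2954.5 against 1867 bases), IAP1-MM_I-int (2019 against 722.5), L1Md_A (6021 against 2744) and L1Md_T (6090 against 1696.5). In IAPA_MM-int it was 255 against 248, and in the LTR subfamilies they were not longer, with RLTR10C at 431 for both. RLTR10C had 1 copy that separated as lower and 7 that separated as higher, and these 7 held 34.6% of its TPM in the deficient libraries. The copy on GRCm38 chromosome 8 (47472306 to 47472737, plus strand), the strongest of them, had 2.72 and 4.15 TPM in WT, 7.35, 2.82 and 4.46 in Nrf1_KO, 222, 121 and 114 in D3C_KO and 123, 70.8 and 18.8 in DKO. A copy of IAPA_MM-int on chromosome 10 (65955532 to 65955786, minus strand) was at 0 in 4 of the 5 intact libraries and at 1.32 in WT replicate 1, and had between 12.6 and 142 TPM in the deficient ones. These copies were chosen for the size of their difference, so their values are descriptions. Reads that fit several copies were divided among them by the authors' program, so a copy's value is less certain than its subfamily's.

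Among genes, the 3 called were low in abundance. Gabrr1 (ENSMUSG00000028280.9, chromosome 4, 33132521 to 33163588, plus strand) encodes the rho-1 subunit of a GABA-gated chloride channel known mainly from the retina. It had 0.0540 and 0.0301 CPM in WT, 0.121, 0.109 and 0 in Nrf1_KO, 0.575, 0.559 and 0.540 in D3C_KO and 0.534, 0.742 and 0.581 in DKO. The deficient libraries were close to one another and all above the intact ones, at 121 counts over 6 libraries against 11 over 5, a log2 fold change of 3.10 (± 0.44 SE, edgeR adjusted p = 0.00662). BC051019 (ENSMUSG00000031022.15, chromosome 7, 109712181 to 109723850, minus strand), a protein-coding gene, had 0.162 and 0.902 CPM in WT, 0.152, 0.272 and 0.194 in Nrf1_KO, 4.60, 2.34 and 3.24 in D3C_KO and 2.93, 2.53 and 1.5 in DKO. WT replicate 2 was the highest intact library and still below all deficient ones (log2 fold change 3.02 ± 0.39 SE, edgeR adjusted p = 0.0074). Both genes stayed under the threshold without D3C_KO replicate 2 or DKO replicate 3 and not without any other library, with adjusted p up to 0.0592 for Gabrr1 and 0.0548 for BC051019, and log2 fold changes between 2.71 and 3.72 across these fits.

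Gm15389 (ENSMUSG00000086161.1, chromosome 1, 107687008 to 107693514, plus strand), a long intergenic non-coding RNA, rose from 12 counts over the intact libraries to 292 over the deficient ones. It had 0.0270 and 0.150 CPM in WT, 0.0304, 0 and 0.194 in Nrf1_KO, 2.24, 1.14 and 2.51 in D3C_KO and 1.27, 1.05 and 0.336 in DKO. D3C_KO replicates 1 and 3 were the highest and DKO replicate 3 the lowest of the deficient libraries, and none overlapped the intact ones. The log2 fold change was 4.13 (± 0.59 SE, edgeR adjusted p = 0.00662), and the call held without Nrf1_KO replicate 3, D3C_KO replicate 2 or DKO replicate 3 and not without any other library (adjusted p up to 0.074).

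Gm15389 starts inside an RLTR10B2 repeat. The annotated repeat runs from 107686732 to 107687147, and the first exon of Gm15389 opens within it, so that 140 of the 180 exon bases shown are LTR sequence. The lincRNA Gm48619 (ENSMUSG00000112454.1, chromosome 12, 6699753 to 6803300, plus strand) opens in the same way inside an IAP1-MM_LTR, with 89 of its 174 first-exon bases, and a non-coding transcript of Spag16 (ENSMUSG00000053153.14, chromosome 1, 69826970 to 70725132, plus strand) has its whole first exon of 111 bases in an IAPLTR2b. These 3 exons are shown because they hold sequence of the RLTR10 and IAP LTRs. They are read from the GENCODE transcripts of GRCm38, 5′ to 3′ on the plus strand, with the bases inside the LTR in capitals:
Gm15389, chr1:107687008-107687187: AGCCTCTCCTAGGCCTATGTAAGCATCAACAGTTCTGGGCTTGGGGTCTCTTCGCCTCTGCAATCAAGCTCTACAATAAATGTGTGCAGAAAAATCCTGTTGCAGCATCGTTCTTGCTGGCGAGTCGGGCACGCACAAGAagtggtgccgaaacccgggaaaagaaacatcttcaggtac
Gm48619, chr12:6699753-6699926: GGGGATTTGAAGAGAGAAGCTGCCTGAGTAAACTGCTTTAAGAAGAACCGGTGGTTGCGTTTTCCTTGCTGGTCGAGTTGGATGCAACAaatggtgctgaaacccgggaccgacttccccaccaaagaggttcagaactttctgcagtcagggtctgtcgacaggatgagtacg
Spag16, chr1:69831740-69831850: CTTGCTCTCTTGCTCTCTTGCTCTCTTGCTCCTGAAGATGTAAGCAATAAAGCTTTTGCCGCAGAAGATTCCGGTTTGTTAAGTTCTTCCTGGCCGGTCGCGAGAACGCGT
The exons of Gm15389 and Gm48619 run on from the LTR into the internal part of the provirus. The longest run of bases they share there is GAAACCCGGGA, 11 bases long, which begins after 9 further bases in both. Retroviruses carry just after their first LTR a site where a transfer RNA binds and primes reverse transcription. On either strand this run is in 16 of 32851 promoter windows of the mouse genome (0.0487%).

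The 300 bases around the start of Gm15389 (RefSeq, GRCm38.p6, plus strand, from 250 bases before to 50 after the start of its RefSeq model) lie wholly within the RLTR10B2 repeat. They are shown for their low CpG content, with CpG in capitals:
Gm15389, chr1:107686750-107687049: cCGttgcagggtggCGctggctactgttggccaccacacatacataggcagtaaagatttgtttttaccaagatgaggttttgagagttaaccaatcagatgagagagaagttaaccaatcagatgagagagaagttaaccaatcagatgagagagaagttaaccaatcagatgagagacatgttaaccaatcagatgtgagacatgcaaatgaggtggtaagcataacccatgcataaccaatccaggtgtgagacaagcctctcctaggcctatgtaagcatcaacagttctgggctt
It holds 2 CpG, where the median over 32851 such windows was 7 and 23.3% had 2 or fewer. The windows of Gabrr1, BC051019 and Spag16 at their RefSeq starts, which lie in no such LTR, hold 9, 5 and 20. The letters TATAAA, on either strand, are in none of the 4 windows and in 13.6% of all.

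The 7 other genes among the 10 with the smallest p were not called. Spag16, a protein of the axoneme of sperm flagella, had 0.270 and 0.601 CPM in WT, 0.152, 0.109 and 0.271 in Nrf1_KO, 3.88, 2.11 and 3.72 in D3C_KO and 3.35, 2.07 and 0.856 in DKO (log2 fold change 3.2 ± 0.44 SE, edgeR adjusted p = 0.0112). Gm48619 had 0 counts in all 5 intact libraries and 88 over the 6 deficient ones, where it lay between 0.183 and 0.804 CPM. It was thus at least 23.6-fold higher, taking the floor as 3 counts over the intact group (edgeR adjusted p = 0.0456). Adtrp, a membrane protein regulated by androgen, and Clvs1, a lipid-binding protein of endosomal trafficking, were at 3.0 (± 0.54 SE, adjusted p = 0.0551) and 2.65 (± 0.46 SE, adjusted p = 0.0822), with no overlap between the groups. Gm29128 had 1 count over the intact libraries and 138 over the deficient ones, a ratio of 111 with a 95% interval of 19.6 to 4414 for counting error alone. The remaining pair had lower values without DNMT3C. Gm45457 had between 0.331 and 0.621 CPM in the intact and between 0.0318 and 0.127 in the deficient libraries (log2 fold change -2.35 ± 0.37 SE, adjusted p = 0.0116), and Gm5242, a processed pseudogene, stood at -1.77 (± 0.33 SE, adjusted p = 0.102).

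**Figure D3:**
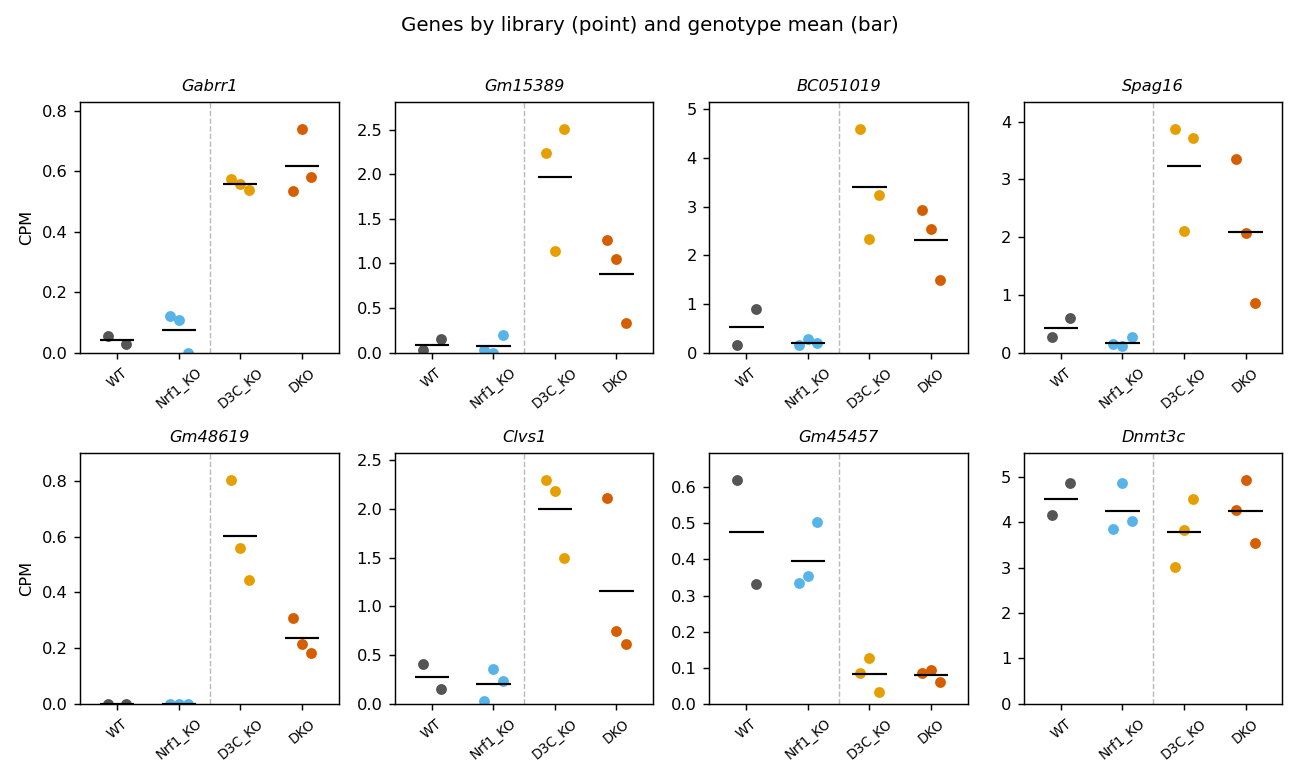
CPM of 7 genes of the 10 with the smallest p and of Dnmt3c in each of the 11 libraries (points), by genotype, with the genotype mean (bar) and a dashed line between Dnmt3C-intact and Dnmt3C-deficient genotypes. 6 of the 7 genes are higher right of the line in every library and Gm45457 is lower in every library, while Dnmt3c overlaps across it.

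The 8 higher genes among these 10 were picked by p, and 7 of them, the 3 called ones included, would not have passed the filter on low counts on the intact libraries alone, so that only genes with higher deficient libraries could enter at that level. The shares that follow describe these genes, and nothing is read from them. Each of the 8 had an IAP or RLTR10 LTR on its own strand within the gene or up to 10 kb upstream, which was so for 1008 of the 21654 tested genes with a match in the annotation (4.66%). On the opposite strand 2 of the 8 had one, Adtrp and Clvs1 (7.68% of all genes), and neither Gm45457 nor Gm5242 had one on either strand. In Gabrr1 the LTR is an RLTR10C from 9545 to 8691 bases upstream of the gene's start, and in Gm29128 an IAPLTR2a from 8254 bases upstream. BC051019 has an annotated transcript start in an RLTR10B2 that begins 2528 bases into the gene, and Adtrp and Clvs1 hold their repeats, an RLTR10 and an IAPLTR2_Mm, far within the gene. The distance of 10 kb was chosen after values were seen. With the gene body alone it was 6 of 8 (2.59% of all genes), and with 20 kb upstream 8 of 8 (6.79%).

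The genes were then grouped by annotated starts inside an LTR, whatever their rank, a grouping prompted by the values of Gm15389, Gm48619 and Spag16, which are in it. Of 42 genes with a transcript start inside an IAP LTR on their own strand, 22 passed the filter on low counts and were tested. Of these, 7 had p under 0.05 before adjustment, all of them higher (31.8%). None of the 7 would have passed the filter on the intact libraries alone, so they entered the test only through the deficient libraries. Of the 14 that would have passed it so, 0 were higher or lower at that p. Of 41 genes that start inside an RLTR10 LTR, 16 were tested, of which 4 were higher (25%) and 1, Ablim1, was lower. Among the 13 of these that pass on the intact libraries alone, 2 were higher (15.4%, against 1.45% over all genes that pass so), BC051019 and Gm15389 not among them. This second filter was added after seeing the data, and it favours genes that are lower without DNMT3C. Without that filter, the share of higher genes was 2.98% of 168 genes that start in other ERVK LTRs, 2.86% of 35 in ERV1 LTRs, 2.00% of 100 in ERVL LTRs, 2.44% of 287 in ERVL-MaLR LTRs and 1.97% of 21040 with no start in an LTR. Clec2g, a C-type lectin gene, was a further member of the IAP group with no overlap between the libraries, at 4.97 (± 1.00 SE, edgeR adjusted p = 0.15). The other 15 genes of the group ranged from -0.25 for Gm28989 to 0.76 for Csta2, and the median of all 22 was 0.47. Abundance differed between these groups, with a median of 0.907 CPM for genes that start in IAP LTRs against 10.3 for those that start in no LTR, and its part in the result was not tested. Clec2g, Gm28989 and Csta2 were named after their values were seen.

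**Figure D4:**
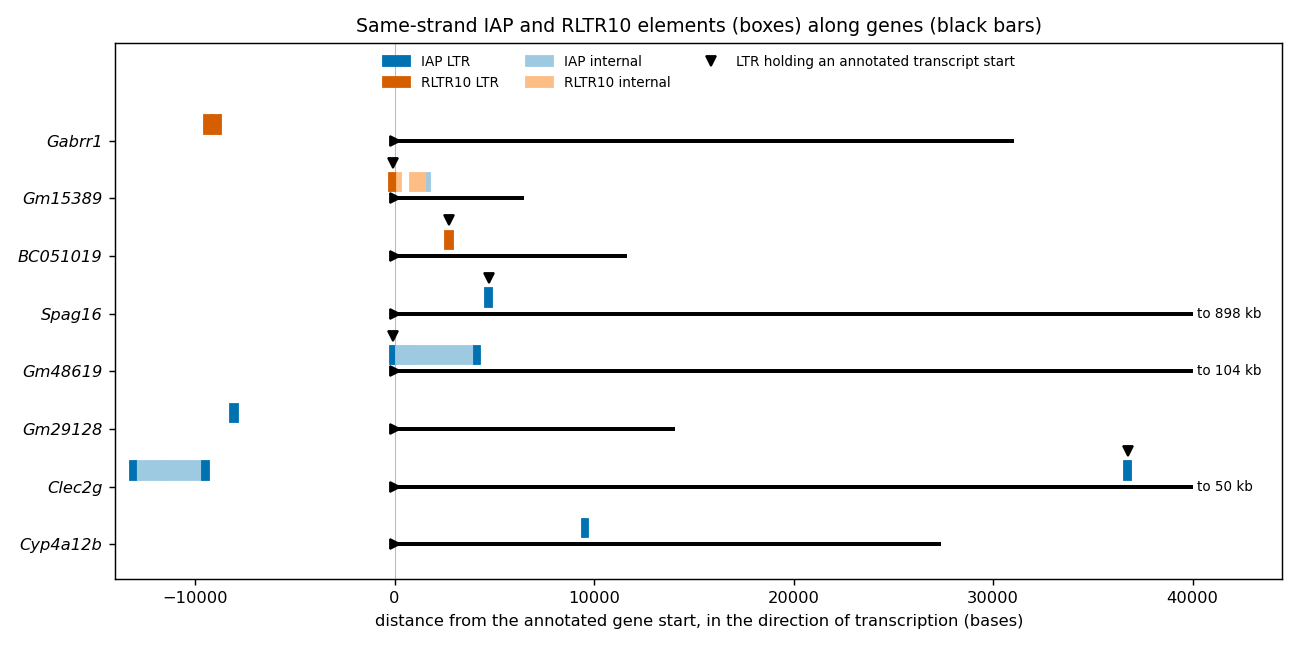
Same-strand IAP and RLTR10 elements (coloured boxes) along 8 genes (black bars) with higher levels without DNMT3C, by distance in bases from the annotated gene start in the direction of transcription. Arrowheads mark LTRs that hold an annotated transcript start, as in Gm15389, BC051019, Spag16, Gm48619 and Clec2g, whereas the elements of Gabrr1 and Gm29128 lie upstream of the gene. Clec2g and Cyp4a12b were chosen for the map after their values were seen.

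**Figure D5:**
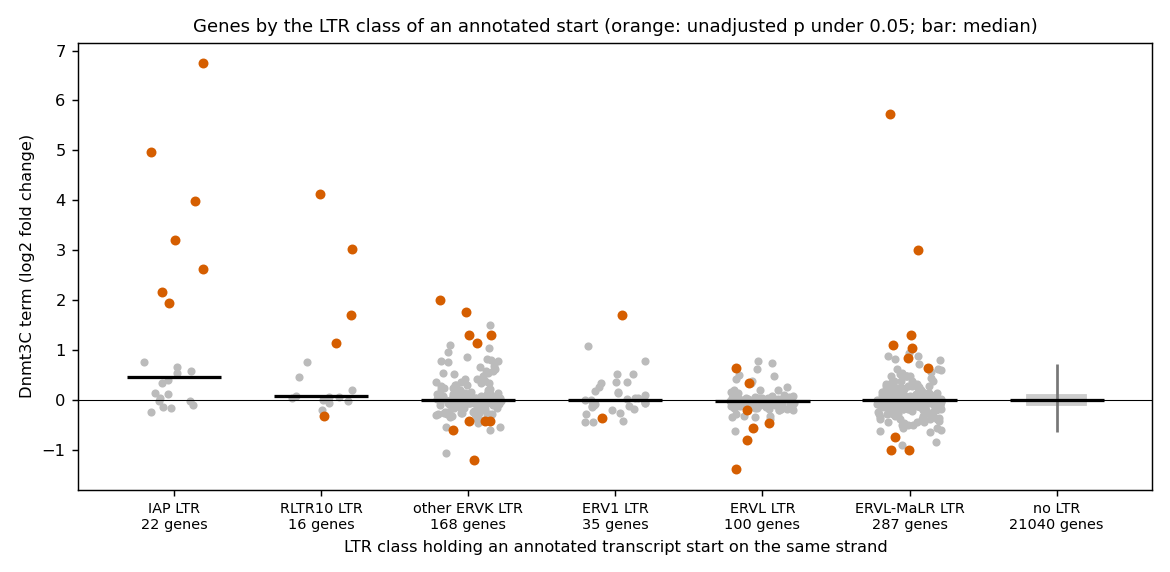
Dnmt3C term (log2 fold change) of genes with an annotated start inside an LTR on their strand, by LTR class, with the median (bar) and genes at an unadjusted p under 0.05 in orange. For genes with no start in an LTR the box spans the middle 50% and the line 95% of values. All 7 orange points of the IAP class are genes that passed the filter on low counts only with the deficient libraries.

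No gene of the lists of regulatory pathways was called. Of 14 genes of the DNA methylation machinery, Hells, a remodeller needed for repeat methylation, was the only one past p of 0.05 before adjustment, at 0.34. That term averaged -0.11 with Nrf1 intact and 0.72 with Nrf1 deleted (adjusted p = 0.815 for the interaction in edgeR). Dnmt3a, Dnmt3b and Dnmt1, named for their roles after their values were seen, stood at -0.08, 0.12 and -0.05. Of 24 piRNA pathway genes 2 were higher at p under 0.05, Pnldc1 at 0.65 and Ddx4 at 0.51, and 21 had a positive term, with a median of 0.33. Germ-cell markers, described below, moved with these genes, and with the germ-cell marker score in the model Pnldc1 and Ddx4 stood at 0.35 and 0.19. Of the 24 genes, 2 are themselves such markers, Ddx4 among them. The score thus holds the level of Ddx4, whose lower term there follows in part from that. None of 25 genes of H3K9 methylation and KAP1 repression passed that p in either direction, and of 17 Polycomb genes 1 did, Eed, at 0.31. Of 27 interferon and nucleic acid sensing genes 0 did, with Ifit2 at -0.21 (± 0.12 SE), Rsad2 at -0.47 (± 0.39 SE) and Zbp1 at -0.61 (± 0.53 SE). Zbp1 had 2.71 CPM in WT replicate 2 and between 0.216 and 0.544 in the other intact libraries, and stood at 0.46 without that library. Rsad2 lay between -0.69 and -0.20 as single libraries were dropped, nearest 0 without Nrf1_KO replicate 2. Of 23 p53 targets 1 was lower, Plk2, at -0.35.

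Among imprinted genes, Rasgrf1, a Ras exchange factor expressed from the paternal allele whose imprint is set in the male germ line, stood at -2.11 (± 0.65 SE, edgeR adjusted p = 0.869). It had 0.783 and 0.391 CPM in WT, 1.88, 0.163 and 0.232 in Nrf1_KO, 0.259, 0.0509 and 0.0635 in D3C_KO and 0.169, 0.216 and 0.183 in DKO. Nrf1_KO replicate 1 was far above the other intact libraries, and without it the log2 fold change was -1.33. With the germ-cell marker score in the model it was -2.84 (edgeR adjusted p = 0.024). Of 30 imprinted genes tested, Rasgrf1 and Airn (-0.41) were lower and Phlda2 (0.71) higher at an unadjusted p under 0.05. Over all genes, 1.32% were lower and 2.01% higher at that p.

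Germ-cell genes mostly had positive terms, with none called. Of 25 germline genes that promoter methylation silences in somatic cells, 12 were higher at an unadjusted p under 0.05 (against 2.01% over all genes) and 24 had a positive term (against 48.2%), with a median of 0.68. Nlrp4c stood at 0.90 (± 0.25 SE, edgeR adjusted p = 0.703), Sycp1, of the synaptonemal complex, at 0.89 and Tex11, a meiotic crossover gene, at 0.76, and for each the libraries overlapped. With Nrf1 intact these genes stood at 0.48, 0.42 and 0.39 and with Nrf1 deleted at 1.29, 1.36 and 1.14, and the median of the list was 0.42 and 0.86. Of 24 meiosis genes tested, of which 4 are in both lists, 9 were higher at that p, Meioc and Sycp2 among them at 0.91 and 0.76. Germ-cell markers moved with these lists. Of 31 tested, 7 were higher and 1 lower at p under 0.05 (against 2.01% and 1.32% over all genes), with a median of 0.26. Their sum was between 850 and 1278 CPM in deficient and between 710 and 1244 in intact libraries. Of the germline genes 4 are themselves such markers. The germ-cell marker score, the mean log2 CPM of the markers tested, was lowest in Nrf1_KO replicates 2 and 3, at 2.25 and 2.24, and in DKO replicate 3, at 2.45, and lay between 3.13 and 3.91 in the other libraries. With the germ-cell marker score added to the model, Nlrp4c was at 0.57, Sycp1 at 0.81 and Tex11 at 0.47.

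Among somatic markers, the 18 Sertoli cell genes had 0 members past an unadjusted p of 0.05 in either direction and a median of -0.08, and Leydig and peritubular markers were alike at -0.06 and -0.01. With Nrf1 intact and with Nrf1 deleted, the medians were 0.17 and -0.27 for Leydig and 0.23 and -0.13 for peritubular markers. They were -0.005 and -0.15 for Sertoli markers. Of 11 macrophage markers 1 was lower at that p (median -0.02, with 0.39 and -0.31 by background). All 7 red blood cell markers tested had negative terms, where 48.2% of all genes had a positive one, and 4 of them were lower at that p (against 1.32% of all genes). Slc4a1, the band 3 anion exchanger, stood at -2.98 and the globin gene Hba-a2 at -1.05. The summed level of the 7 was between 262 and 791 CPM in deficient and between 310 and 2160 in intact libraries. It was highest in WT replicate 2 and Nrf1_KO replicate 2. All 9 endothelial markers had negative terms too (median -0.44), 1 of them, Pecam1, at that p. Their median was 0.05 with Nrf1 intact and -0.85 with Nrf1 deleted, and Nrf1_KO replicates 1 and 2 had the highest sums, at 489 and 465 CPM against 257 to 357 in the deficient libraries. Their part in the results above was not tested. The genes around Dnmt3c itself showed no such shift. Of 206 genes within 5 Mb of it 0 were called and 2, both higher, reached p under 0.05 before adjustment, and none of the 10 genes with the smallest p lay on its chromosome.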

How the data were processed

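RNA-seq of whole testis at postnatal day 5 was analysed in 11 libraries of 4 genotypes, grouped by the labels. Per the study's text, RNA came from individually genotyped animals, with littermates as controls where possible, and its legends call the replicates biological. Of WT, 2 libraries were analysed here. The p-values measure the spread between these libraries, that of animals and of library preparation together. Per the study's methods, a replicate of each genotype had been left out for an RNA integrity number below 8. Per the submitters' processing notes the authors aligned reads with STAR 2.7.3a to GRCm38/mm10 and used DESeq2 1.44.0. The deposited counts are whole reads per gene and per TE subfamily that the authors made with TEtranscripts, in which reads of several places were shared out and counting was set for reverse-stranded libraries. The deposited TPM values per TE copy come from the authors' TElocal runs. The count tables also hold the authors' own comparisons (mean normalized counts, fold changes and p-values), which were not used.

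The pairwise tables were joined on their first column into 33188 genes and 1088 TE subfamilies. The 683848 values compared between tables were identical. After edgeR's filterByExpr by genotype, 22594 features were fitted with edgeR 4.0.16 (R 4.3.3), TMM scaling and the quasi-likelihood test on Dnmt3C status with Nrf1 status as covariate. Benjamini-Hochberg adjustment ran over genes and TE subfamilies together, with a threshold of 0.01. The within-background effects and the interaction came from a fit of the 4 genotypes. SEs were derived from the log2 fold change and the F statistic of the test. CPM use TMM-scaled library sizes, and replicates differed by far more than counting noise (chi-square per degree of freedom of 19.6 or more), so none was merged. The total counts per library bound the precision. Intervals and floors (3 counts, 95% level) cover counting error only. LTR positions and gene models are those of GRCm38 (GENCODE M21 here, a release near the one the authors used), and 99.83% of tested genes matched.

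The features named are all those called, a fixed list of TE subfamilies, the 10 genes with the smallest p and the 2 to 4 smallest p of each gene list. All others were chosen after their values were seen. They include further TE subfamilies at an unadjusted p under 0.05, Ablim1, cell type markers and single TE copies. The members and lists were chosen with earlier results of these data known. Alternatives were DESeq2 1.42.0, limma 3.58.1 (voom), DESeq2 size factors, the older quasi-likelihood method, no filter, a threshold of 0.05, models without Nrf1 or with a replicate block or a germ-cell marker score, scaling on genes only, copy TPM summed per subfamily on log2(TPM + 1) and log2(TPM + 0.1), and each library left out. The fits were tested on simulated counts. Exact tests used R 4.3.3. Tables were joined and LTR positions matched with Python 3.11.15, and figures used matplotlib 3.10.9.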

Additional observations from a re-analysis of the deposited data

Results flagged for a closer look

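In DKO replicate 2, Gabrr1 stood apart from the other deficient libraries at 0.742 CPM, with the next at 0.581 and a gap of 0.776 of the group's range. WT replicate 2 stood apart for BC051019 among the intact libraries, at 0.902 CPM against 0.272 for the next (0.84 of the range). For Adtrp it was D3C_KO replicate 1 among the deficient ones, at 1.81 CPM against 0.687 (0.666 of the range). Gm29128 had its single intact count in WT replicate 2, at 0.0301 CPM with the others at 0 (1 of the range). Each gap passed the 95% critical value of Dixon's test for its number of libraries, which chance passes in about 1 in 20 of the 52 groups tested.

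The difference in the TE share of counts with DNMT3C loss was 1.14 percentage points apart between the Nrf1 backgrounds, with D3C_KO below WT and DKO above Nrf1_KO. The p was 0.02 (exact permutation test within backgrounds, added after seeing the data). Its null is no Dnmt3C effect in either background, so it does not test whether the effects are equal. Without DKO replicate 1 the value was 0.968 (p = 0.06, same exact permutation test), and without WT replicate 1 it was 1.06.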

How the results depend on the processing

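The count of 3 genes and 2 TE subfamilies called changed with the test. DESeq2's Wald test called 16 genes and 9 subfamilies. With limma-voom, the older quasi-likelihood method, the mean of the within-background effects or the replicate block it was 0 genes and 1 subfamily, and with the germ-cell marker score 0 and 0. A threshold of 0.05 gave 6 genes and 3 subfamilies. Summed copy TPM gave 4 subfamilies with a pseudocount of 1 and 4 with 0.1. Leaving out a library gave 0 to 4 genes and 0 to 3 subfamilies, with 0 and 0 without WT replicate 2 and without Nrf1_KO replicate 2. The interaction called 0 features in each such fit that kept the 2 WT libraries, and the TE share difference was -0.0271 to 0.341 percentage points. A WT library left alone is assumed to vary like the other groups. DESeq2 size factors and gene-only scaling kept the counts at 3 and 2, and no filter or a model without Nrf1 gave 4 and 3. The cause of these changes was not tested. Over 58 named features and 1314 alternative values, 1213 kept their direction and side of the threshold, 58 lost and 26 gained a call, and 17 sign changes in 8 features were among values never called. Replicate numbers did not pair the samples (15 same-number pairs, median r of -0.08, 4 over 0.1). The third D3C_KO and DKO libraries are numbered 4 and 5 in the tables, and without them the 12 pairs had a median r of -0.11, again 4 over 0.1. Genes under 1 CPM rest on few counts.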

Other observations

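Outside the lists, the LTR-rich genes were not the only ones to separate. Of 32 genes whose deficient libraries all lay above the intact ones, 13 (40.6%) had a same-strand IAP or RLTR10 LTR in the gene or within 10 kb upstream, and 19 did not. It was 2 of the 10 genes (20%) that separated in the other direction, and 4.66% of all matched genes. Genes that passed the filter on low counts only with the deficient libraries are among the 32, so nothing is read from these shares. Gm20750, a lincRNA on chromosome 3 with no such LTR on its own strand within 20 kb, had 0 counts in all intact libraries and 66 over the deficient ones, at least 17.7-fold higher with the floor of 3 counts over the intact group. It was chosen after its values were seen.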
